A study of Mus musculus with 4 samples.

Results

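The genes described here are 10 antiviral restriction effectors of mouse peritoneal macrophages: Mx1, Mx2, Rsad2, Cmpk2, Bst2, Isg20, Eif2ak2, Zbp1, Samhd1 and Ifitm3. They were taken from a table of 55414 genes by their symbols, and all 10 were found and passed the filter on low counts. Peritoneal macrophages are phagocytes from the fluid of the abdominal cavity. They received either 0.5 mg/ml LUP for 24 h (2 libraries) or the vehicle, which was complete medium (2 libraries), and their RNA was sequenced. The labels do not spell out LUP and give no mouse strain, sex or age, and they leave unsaid if libraries within a group are separate animals or cultures, so p-values measure the spread between these libraries, which may be technical.

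Restriction effectors are proteins that block a step of viral infection inside the cell. Most of their genes are switched on by interferons: signalling from the interferon receptor sends transcription factors to the nucleus, which bind a promoter motif called the interferon-stimulated response element (ISRE). Macrophages express many of these proteins at rest and raise them on exposure to interferon or to microbial products. The effectors act at different steps, from the entry of the virus (Ifitm3) through its RNA, nucleotides and proteins (Eif2ak2, Isg20, Rsad2, Cmpk2, Samhd1, the Mx proteins) and the fate of the cell (Zbp1) to the release of new particles (Bst2).

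Because the 10 genes moved together, the ISRE letters were looked for in RefSeq promoter windows (build GRCm38.p6) that run from 250 bases before to 50 bases after a transcript start. The motif searched was GAAA, any 2 bases and GAAA again, or on the other strand TTTC, any 2 bases and TTTC. Windows were matched by symbol for 7 members, and Mx1, Mx2 and Zbp1 had no entry. The ISRE letters stood in 4 of the 9 windows of these 7 genes (those of Bst2, Rsad2, Ifitm3 and Eif2ak2), against 3.44% of all 32851 windows. They were not in the windows of Cmpk2, Isg20 (3 windows) and Samhd1, which says only that these letters are absent there. The stretches that hold the matches, printed because they carry the motif, are on the gene's own strand, which is the minus strand for all 4, with the ISRE letters in capitals.
Bst2, chr8:71537565-71537624: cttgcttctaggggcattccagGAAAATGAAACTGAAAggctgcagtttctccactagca
Rsad2, chr12:26456538-26456597: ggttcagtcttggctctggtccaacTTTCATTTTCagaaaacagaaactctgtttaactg
Ifitm3, chr7:141010715-141010744: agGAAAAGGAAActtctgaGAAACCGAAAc
Eif2ak2, chr17:78882535-78882564: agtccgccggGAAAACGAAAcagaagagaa
In Bst2 a pair of overlapping matches began at positions -130 and -124 from the transcript start, and in Rsad2 the match began at -120. In Ifitm3 the matches began at bases 3 and 20 of the transcript, and in Eif2ak2 at base 19. A second motif, the gamma-activated site (GAS) TTCNNNGAA, which reads the same on both strands, stood in windows of Bst2, Ifitm3, Eif2ak2, Isg20 and Samhd1 and in 8.3% of all windows. In Bst2 and in Ifitm3 the GAS letters overlapped ISRE letters.

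**Figure D1:**
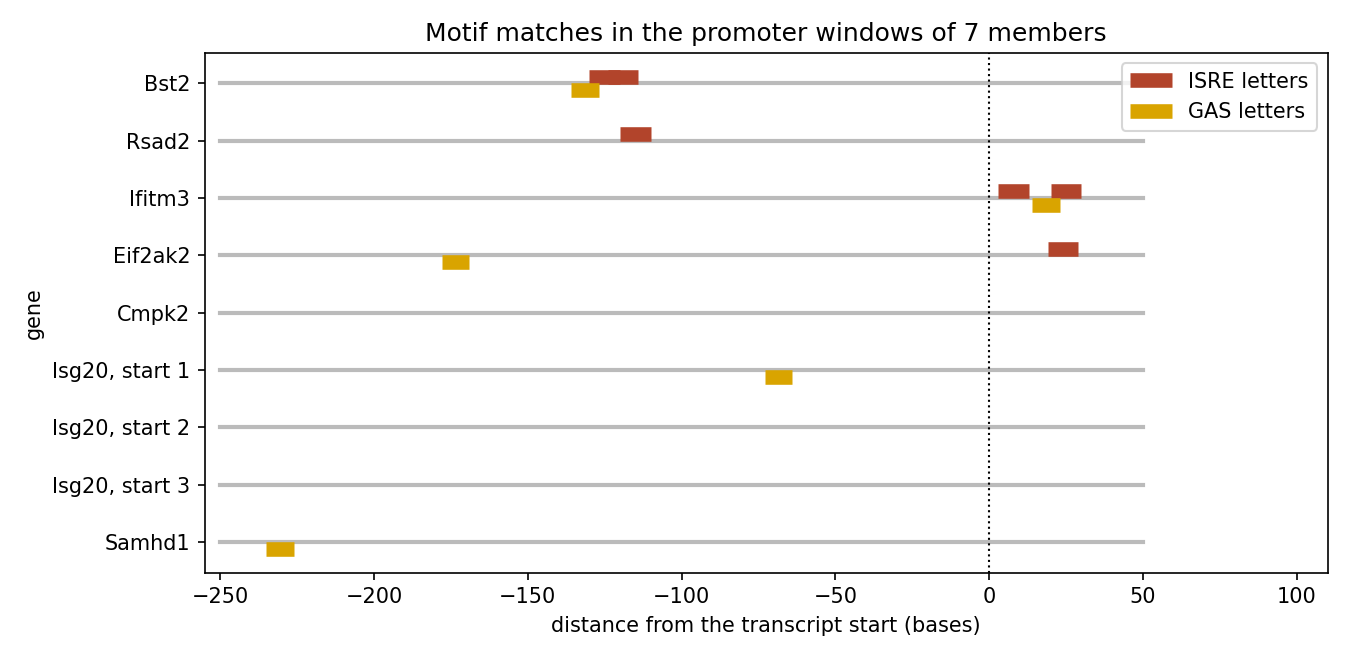
Positions of the ISRE letters (red) and the GAS letters (yellow) in the promoter windows of 7 members, in bases from the transcript start; each grey line is 1 window. The ISRE letters lie before the start in Bst2 and Rsad2 and just after it in Ifitm3 and Eif2ak2.

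Depth was 23617618 and 22460913 counts in the LUP libraries, against 19949818 and 23172691 counts in the vehicle libraries. Macrophage markers stood at a summed 21634 and 21828 TPM with LUP and 27444 and 27075 TPM with vehicle (12 genes; TPM is a level scaled for transcript length and library size). Of these 12, 7 were called higher, 3 lower and 2 were not called, with a median log2 change of 0.56. The sum is mostly Lyz2, the macrophage lysozyme gene, which had 15652 and 15999 TPM with LUP and 22379 and 22088 TPM with vehicle, and Cd68, a lysosomal protein gene, had 4098 and 4013 TPM with LUP and 4258 and 4161 TPM with vehicle. On counts Lyz2 was called lower and Cd68 was not called (log2 change 0.068), while most of the other markers were called higher. Adgre1, the F4/80 antigen gene, had 587 and 584 TPM with LUP and 115 and 123 TPM with vehicle (4.86-fold higher). Csf1r, the receptor for macrophage colony-stimulating factor, was 2.03-fold higher. The genes of resident peritoneal macrophages were split. Timd4, a receptor for dying cells, was called higher, with 28 and 20 counts in the LUP libraries, against 0 and 1 in the vehicle libraries. Gata6, a factor that defines resident peritoneal macrophages, was called lower, with 1.34 and 1.1 TPM with LUP and 2.67 and 3.59 TPM with vehicle. Of 10 neutrophil markers 3 were called higher with LUP (Mmp8, S100a8 and Camp) and 1 lower (Cxcr2, a call lost without vehicle replicate 2). Their summed level was 306 and 269.6 TPM with LUP and 45.4 and 47.4 TPM with vehicle, of which Mmp8 alone gave 213 and 179.8 TPM with LUP. The listed neutrophil markers Ly6g, S100a9 and Mpo stood at 0 in all 4 libraries. T and NK cell markers summed to 6.23 and 5.65 TPM with LUP and 2.52 and 4.75 TPM with vehicle (11 genes), B cell markers to 4.5 and 2.45 TPM with LUP and 3.9 and 6.25 TPM with vehicle (8 genes), and dendritic cell markers to 4.68 and 5.43 TPM with LUP and 1.34 and 1.6 TPM with vehicle (8 genes). Of the dendritic cell sum, Ccr7, the one such marker called, gave 3.89 and 4.43 TPM with LUP and 0.43 and 0.48 TPM with vehicle. Mast cell and eosinophil markers summed to 4.21 and 3.04 TPM with LUP and 10.4 and 8.59 TPM with vehicle (8 genes). Of that sum, Siglecf, the only such marker called, gave 0.99 and 0.9 TPM with LUP and 6.6 and 5.6 TPM with vehicle. Mesothelial and fibroblast markers summed to 137 and 104 TPM with LUP and 104 and 118 TPM with vehicle (10 genes, 2 called higher and 4 lower). In such bulk samples fewer cells of a type and less RNA per cell cannot be told apart, and the part of these cell types in the levels below was not tested.

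The question put to these genes was whether LUP changed their RNA levels within 24 h. All 10 rose with LUP, between 2.01-fold (Samhd1) and 41.8-fold (Zbp1), by edgeR's quasi-likelihood test at an adjusted p under 0.05 (Benjamini-Hochberg over 13355 genes). Calls upward were common in this comparison, with 27.1% of all tested genes called higher. Rises of this size were less common. In this test all 10 members rose at least 2-fold, against 6.37% of all tested genes. Of the 10 members, 7 rose at least 8-fold, against 1.56% of all tested genes, and 3 at least 20-fold, against 0.734%. Samhd1 only just reached 2-fold on counts, and its ratio of mean TPM was 1.4. It lay below 2-fold after quantile normalization, among genes of at least 5 TPM and with limma on log2 TPM. The same held without LUP replicate 1 and without vehicle replicate 2. In the other alternatives it stayed above 2-fold. The median log2 change was 3.44 over the members, 2.08 over 50 other antiviral effector genes and -0.0011 over all genes tested. Because the members and lists were chosen with earlier results of these data known, these contrasts are descriptive only. In TPM, both LUP libraries lay above both vehicle libraries for every member, as they did for 27.6% of all tested genes. The members' summed level was 4436 and 4282 TPM with LUP, which is 0.446% and 0.43% of the library's total TPM, and 591 and 603 TPM with vehicle, which is 0.0594% and 0.0606%.

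**Figure D2:**
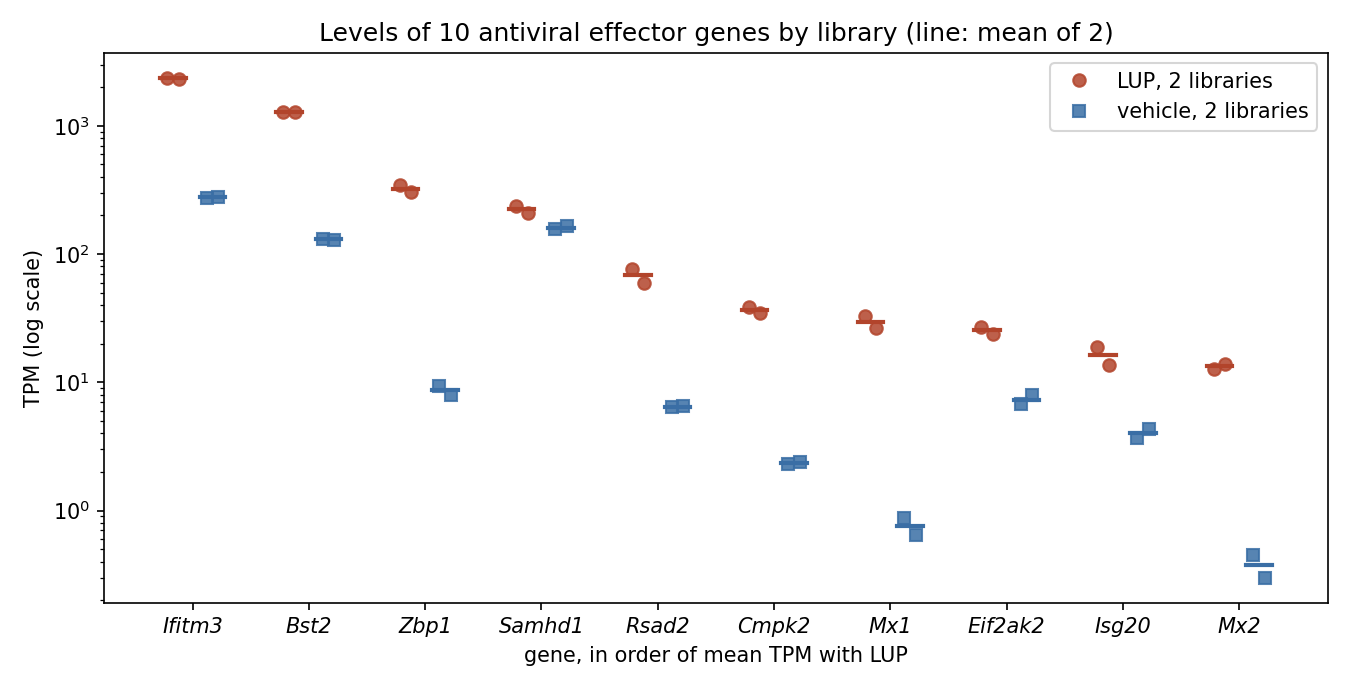
TPM on a log scale of the 10 members in each library, with LUP (red circles) left of vehicle (blue squares) and a line at the mean of 2 libraries. The groups do not overlap for any member, and the gap is narrowest for Samhd1.

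With LUP the highest levels belonged to the membrane-bound effectors that act on viral entry and release, Ifitm3 and Bst2. With vehicle Samhd1 lay between them. Ifitm3, which keeps the fusion of enveloped viruses from opening a pore in the endosome membrane, had 2361 and 2321 TPM with LUP, against 274 and 278 TPM with vehicle. Bst2 (tetherin), which holds budding particles on the cell surface, had 1286 and 1275 TPM with LUP, against 132 and 129 TPM with vehicle. The libraries of a group lay close together for both genes, and the groups were far apart.
The rise was 9.12-fold for Ifitm3 (95% interval 8.59 to 9.69, adjusted p = 7.17e-21) and 10.6-fold for Bst2 (9.89 to 11.3, adjusted p = 8.53e-21). Together they made up 82.2% and 84% of the members' summed TPM with LUP and 68.6% and 67.6% with vehicle.
Ifitm3 counts were not whole, so some of its reads fit other genes too. Its closest expressed relative Ifitm2, which acts at the same step, had 566 and 607 TPM with LUP and 399 and 379.6 TPM with vehicle, a 1.62-fold rise (adjusted p = 6.7e-10). Ifitm6, the next gene on the chromosome in RefSeq, had 4.5 and 4.17 TPM with LUP and 5.61 and 5 TPM with vehicle and did not pass the test (adjusted p = 0.734). The other 4 listed Ifitm genes were below the filter.

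Zbp1, a sensor of left-handed double-stranded nucleic acid that can start necroptosis, had the largest fold of the 10 on counts, with an interval that overlapped that of Mx1. As a ratio of mean TPM, Mx1 rose 39-fold and Zbp1 37.2-fold. Zbp1 had 344 and 304 TPM with LUP, against 9.41 and 7.97 TPM with vehicle. The rise on counts was 41.8-fold (95% interval 37.5 to 46.7, adjusted p = 1.89e-20) and ranked at place 61 of all 13355 tested genes. By level Zbp1 stood at place 424 with LUP, against place 7680 with vehicle. Its counts were whole in all libraries, 6608 and 5572 with LUP, against 137 and 141 with vehicle.
Of the 7 listed partners of Zbp1 in cell death, 4 were higher, 2 lower and 1 not called. Mlkl, the pore-forming executor of necroptosis, had 44.6 and 40.7 TPM with LUP and 9.12 and 9.91 TPM with vehicle (4.7-fold, adjusted p = 4.73e-15). Ripk3, the kinase that activates it, had 37 and 33.8 TPM with LUP, against 15.6 and 23.5 TPM with vehicle, a 1.95-fold rise.
Cflar, an inhibitor of caspase-8, rose 2.19-fold. The caspase gene Casp8 rose 1.18-fold, a call that was lost after quantile normalization and with limma on log2 TPM. The adaptor gene Fadd fell, with 9.94 and 9.45 TPM with LUP and 14.6 and 13.6 TPM with vehicle, and Casp6 fell by 0.39 on the log2 scale, a call lost with the DESeq2 test. Ripk1 had 33.9 and 31.3 TPM with LUP and 35 and 36.8 TPM with vehicle and did not pass the test (adjusted p = 0.129). Under quantile normalization, and when genes under a mean of 5 TPM were left out, it was called lower.

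The dynamin-like GTPases Mx1 and Mx2 were the lowest members with vehicle. Mouse Mx1 protein acts in the nucleus against influenza-like viruses and Mx2 in the cytoplasm. Many inbred laboratory strains carry Mx alleles that give no working protein, so RNA levels here do not tell whether protein was made. Mx1 had 32.7 and 26.6 TPM with LUP, against 0.87 and 0.65 TPM with vehicle. Mx2 had 12.8 and 13.9 TPM with LUP, against 0.45 and 0.3 TPM with vehicle. Both genes were near the floor with vehicle and well above it in both LUP libraries.
The rise on counts was 32.1-fold for Mx1 (95% interval 27.1 to 37.9, adjusted p = 2.35e-17) and 24.1-fold for Mx2 (16.9 to 34.5, adjusted p = 9.09e-12). As a ratio of mean TPM it was larger for both, 39-fold for Mx1 and 35.6-fold for Mx2. The Mx2 fold rests on 9 and 10 counts with vehicle, against 271 and 214 with LUP; the ratio of summed counts, scaled for library size, was 24.4 with an exact 95% interval of 15.5 to 41, which covers counting error only. Counts of Mx1 were whole in none of the 4 libraries and those of Mx2 not in LUP replicate 1, so their split between similar genes is uncertain. Dnm2, the most abundant of 7 listed large dynamin-family GTPases, had 147 and 138 TPM with LUP and 134 and 128 TPM with vehicle and was called 1.16-fold higher, a call lost with limma on log2 TPM. Of these 7, 3 were called higher, 3 were not called and 1 was below the filter.

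Rsad2 and Cmpk2 are neighbours on chromosome 12 in RefSeq, with no gene listed between them. Rsad2 encodes viperin, a radical-SAM enzyme that turns CTP into a chain-terminating nucleotide, and Cmpk2 a mitochondrial kinase that supplies CTP and other nucleotides. Rsad2 had 76.7 and 59.7 TPM with LUP, against 6.39 and 6.48 TPM with vehicle. Cmpk2 had 38.7 and 34.5 TPM with LUP, against 2.32 and 2.37 TPM with vehicle. Rsad2 was the more abundant of the neighbours in all 4 libraries, and Cmpk2 had the larger fold.
The rise was 11.2-fold for Rsad2 (95% interval 9.87 to 12.7, adjusted p = 8.86e-17) and 16.5-fold for Cmpk2 (14.5 to 18.8, adjusted p = 1.5e-17), and these intervals did not overlap. The relative Rsad1 had 3.33 and 2.85 TPM with LUP and 3.16 and 3.29 TPM with vehicle and did not pass the test (adjusted p = 0.777). Of 8 listed radical-SAM genes and viperin partners, 3 were called higher, 1 lower and 4 were not called. Cmpk1, the cytosolic counterpart of Cmpk2, went the other way and fell by 0.44 on the log2 scale, with 49.9 and 47.2 TPM with LUP and 70.5 and 68.5 TPM with vehicle (adjusted p = 8.04e-08).

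Samhd1 breaks down deoxynucleotides and so starves reverse-transcribing viruses in macrophages. It had 239 and 210.4 TPM with LUP, against 156 and 166 TPM with vehicle. Its groups lay closer together than those of any other member. The rise was 2.01-fold on counts (95% interval 1.89 to 2.15, adjusted p = 5.08e-13) and 1.4-fold as a ratio of mean TPM. With limma on log2(TPM + 1) the log2 change was 0.48 (adjusted p = 0.0115), against 1.01 on counts.
Counts and TPM can part where the reads of a gene move between transcripts of unlike length, since TPM divides by length. The length implied by counts per TPM, scaled on 9246 well-covered genes, was 2497 and 2495 bases for Samhd1 with LUP, against 1909 and 1806 bases with vehicle. The ratio was 1.34, and 0.973% of those genes had a larger shift in either direction. In the GENCODE M21 annotation Samhd1 has 10 transcripts of 473 to 3926 bases, of which the 4 protein-coding ones run from 1996 to 3926 bases; which annotation release the authors used is not stated. Samhd1 counts were whole in none of the 4 libraries, so some of its reads fit other genes too, and whether its transcripts changed in their shares was not tested.
Among the other members the implied length moved most for Mx2, with a ratio of 0.619 (1529 and 1142 bases with LUP, against 1758 and 2556 bases with vehicle), and for Mx1, with a ratio of 0.758. The vehicle values of both rest on few counts, and those of Mx1 (3970 and 4807 bases) exceed its longest M21 transcript of 3385 bases. The implied length also exceeded the longest M21 transcript for Rsad2 (4235 to 4293 against 4189 bases) and Cmpk2 (3443 to 3527 against 3274 bases) in all 4 libraries, so these lengths are read here only as ratios between groups. For the other 7 members the ratio lay between 0.979 (Isg20) and 1.04 (Zbp1).

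**Figure D3:**
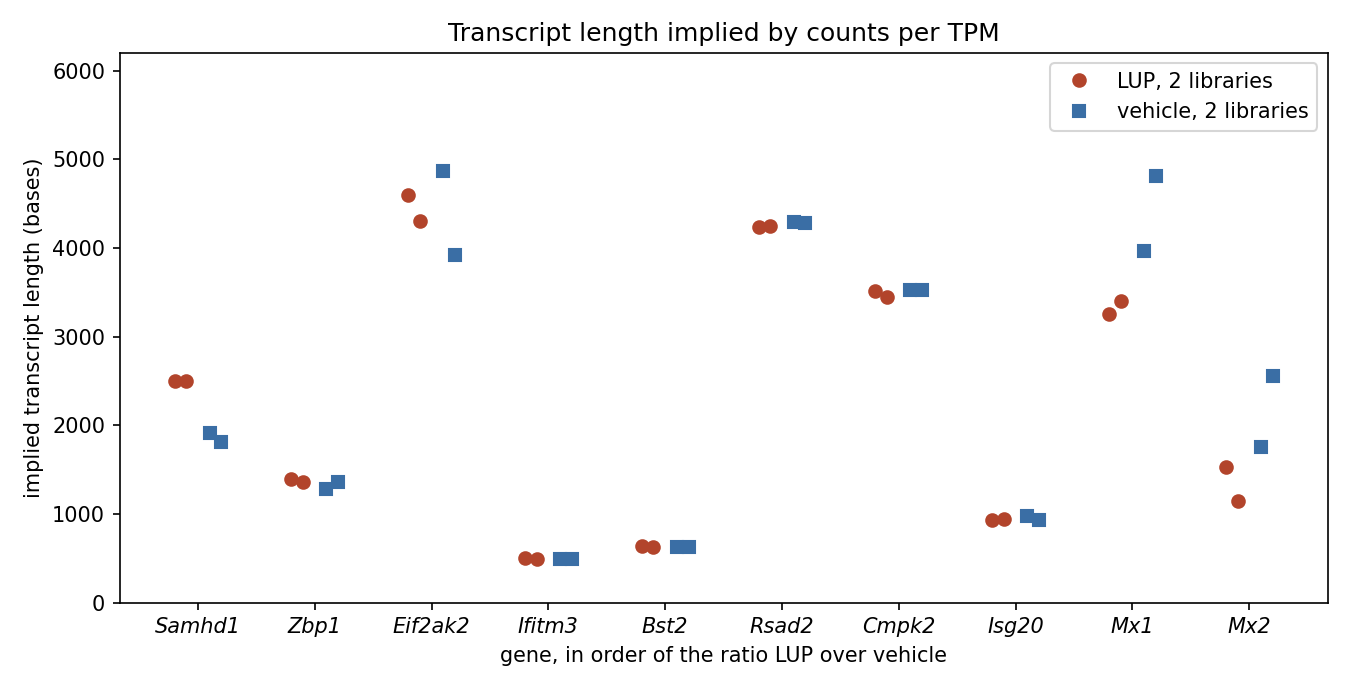
Transcript length in bases implied by counts per TPM, with LUP (red circles) and vehicle (blue squares), 2 libraries each. Samhd1 stands longer with LUP in both libraries, Mx1 and Mx2 shorter, and for the other 7 members the group means differ by little.

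Genes of deoxynucleotide metabolism moved in both directions. Of 18 listed, 7 were called higher, 3 lower, 7 were not called and 1 was below the filter, with a median log2 change of -0.09. Dck, the kinase that salvages deoxycytidine, had 32 and 30.3 TPM with LUP and 6.66 and 6.8 TPM with vehicle, a 5-fold rise. Upp1, a uridine phosphorylase gene, had 9 and 5.56 TPM with LUP and 0.82 and 0.78 TPM with vehicle, an 8.4-fold rise. Dck and Upp1 were chosen after their values were seen.
The most abundant gene of the list, Nme2, a nucleoside diphosphate kinase gene, rose 1.32-fold. Tk2, the mitochondrial thymidine kinase gene, fell by 0.53 on the log2 scale. The ribonucleotide reductase gene Rrm1 had 11.4 and 9.96 TPM with LUP and 11.2 and 11.6 TPM with vehicle (adjusted p = 0.297), and it was called lower after quantile normalization.

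Eif2ak2 encodes PKR, a kinase that senses double-stranded RNA and halts translation by phosphorylating eIF2 alpha. It had 27.2 and 23.8 TPM with LUP, against 6.75 and 7.9 TPM with vehicle, a 3.82-fold rise (95% interval 3.39 to 4.3, adjusted p = 2.74e-13). Its groups did not overlap. The other eIF2 alpha kinases, which sense heme, unfolded proteins and amino acid shortage, moved little. Eif2ak1 had 25.1 and 23.4 TPM with LUP and 22.8 and 22.7 TPM with vehicle, a 1.14-fold rise.
Eif2ak3 fell by 0.33 and Eif2ak4 by 0.18 on the log2 scale; both were chosen after their values were seen. The call of Eif2ak1 was lost under 5 of the 13 alternatives, among them leaving out vehicle replicate 2, and that of Eif2ak4 under 7, among them leaving out LUP replicate 1, LUP replicate 2 or vehicle replicate 2. Eif2s1, the substrate subunit, rose 1.45-fold. Adar, which edits double-stranded RNA and limits PKR, rose 2.76-fold to 68.2 and 62.1 TPM with LUP, against 28.1 and 24.7 TPM with vehicle; it also stands in the list of other antiviral effectors. Of the 10 genes of this list, 5 were called higher, 3 lower and 2 were not called.

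Isg20, an exonuclease that degrades single-stranded RNA, was among the least abundant members with LUP and the most variable between LUP libraries. It had 18.8 and 13.8 TPM with LUP, against 3.69 and 4.36 TPM with vehicle, a 4.22-fold rise (95% interval 3.17 to 5.62, adjusted p = 3.99e-08). The counts behind these levels were 242 and 174 with LUP and 41 and 53 with vehicle.
Aen, its relative and the neighbouring gene in RefSeq, had 23.2 and 18.3 TPM with LUP and 15.7 and 16.9 TPM with vehicle, a 1.41-fold rise whose call was lost with limma on log2 TPM. Of 8 listed exonuclease relatives, 4 were called higher, 3 were not called and 1 was below the filter. Trex1, which clears cytosolic DNA, rose 13.8-fold to 184 and 176 TPM with LUP, against 14.6 and 13.4 TPM with vehicle; it too stands in the list of other effectors. The mitochondrial oligoribonuclease gene Rexo2 rose 1.82-fold.

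**Figure D4:**
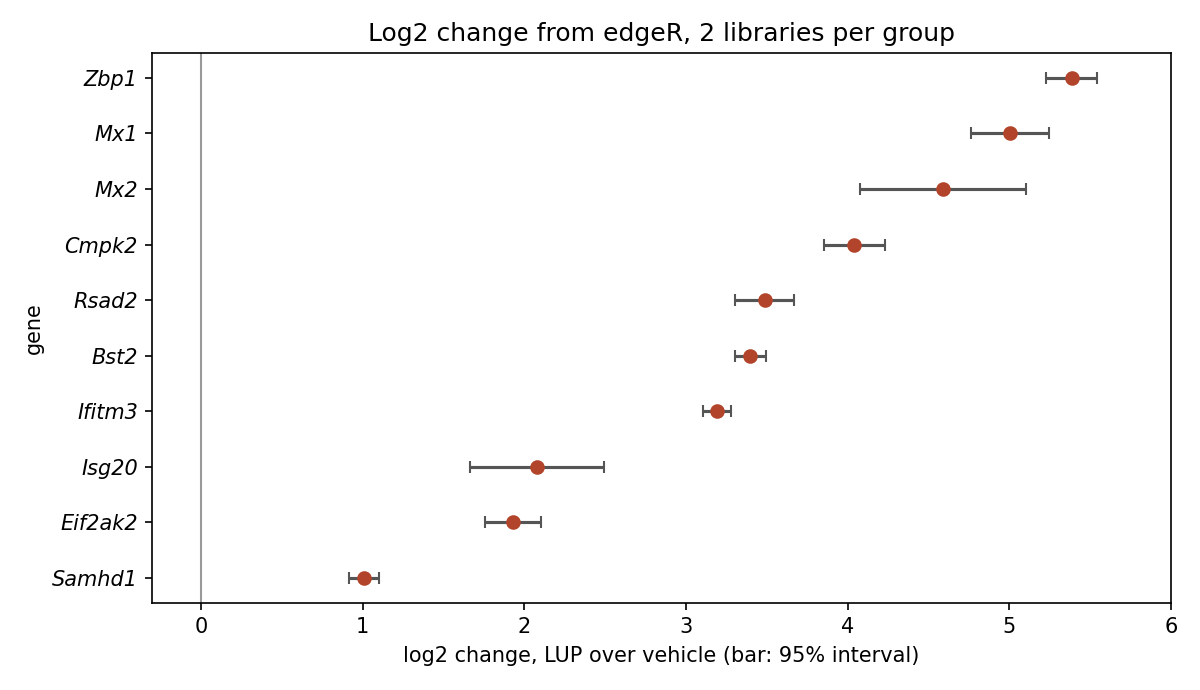
Log2 change of each member, LUP over vehicle, from edgeR's quasi-likelihood test with its 95% interval (2 libraries per group). All intervals lie above 0, from Samhd1 at 1.01 to Zbp1 at 5.39.

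The members fell into a wide order of folds in which not every neighbour could be told apart. The 95% intervals of Zbp1 and Mx1, of Mx1 and Mx2, of Mx2 and Cmpk2, of Rsad2 and Bst2 and of Isg20 and Eif2ak2 overlapped. Those of Cmpk2 and Rsad2, of Bst2 and Ifitm3, of Ifitm3 and Isg20 and of Eif2ak2 and Samhd1 did not. The 4 members with the ISRE letters in a window rose between 3.82-fold (Eif2ak2) and 11.2-fold (Rsad2), inside the range of the 3 members whose windows lack them, 2.01-fold (Samhd1) to 16.5-fold (Cmpk2).
In the order of levels, Ifitm3 came first in both groups. With LUP it was followed by Bst2, Zbp1, Samhd1, Rsad2, Cmpk2, Mx1, Eif2ak2, Isg20 and Mx2, where the libraries of Mx1 and Eif2ak2 and those of Isg20 and Mx2 overlapped. With vehicle it was followed by Samhd1, Bst2, Zbp1, Eif2ak2, Rsad2, Isg20, Cmpk2, Mx1 and Mx2, with no overlap between neighbours. Samhd1 thus made up 5.38% and 4.91% of the members' summed TPM with LUP and 26.3% and 27.4% with vehicle. Zbp1 made up 7.75% and 7.09% with LUP and 1.59% and 1.32% with vehicle.
Within the LUP group, 9 of the 10 members had more counts, scaled for library size, in replicate 1 than in replicate 2. So did 42 of the 50 other antiviral effectors, 9 of the 10 mesothelial and fibroblast markers and 49.4% of all tested genes. The same held for all 4 tested neutrophil markers, 6 of 7 ZBP1 death genes and 10 of 14 interferon signalling genes, against 8 of 17 deoxynucleotide genes. Between the vehicle libraries, 8 of the 10 members were higher in replicate 1. So were 29 of the 50 other antiviral effectors and 4 of the 14 interferon signalling genes, and the share of all tested genes was not computed for this pair. The part of any cell type in these replicate differences was not tested. In the LUP group the ratio of replicate 1 to replicate 2 was largest for Isg20 (1.31) and Rsad2 (1.23), and Bst2 was the exception with 0.985. The groups stayed apart all the same, since the smallest LUP value of each member lay above its largest vehicle value.

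Outside the members, 45 of the 50 listed antiviral effector genes were called higher and 4 lower. The most abundant were Ly6e, a membrane-anchored inhibitor of coronavirus entry, with 2544 and 2309 TPM with LUP and 250.2 and 226 TPM with vehicle, and Lgals3bp, a secreted glycoprotein gene, with 1899 and 1764 TPM with LUP and 278 and 267 TPM with vehicle. Lgals9, the galectin-9 gene, rose 5.81-fold and the ubiquitin-like modifier Isg15 60.3-fold.
The 4 that fell were Apobec1, Serinc5, Serinc3 and Khnyn, chosen for naming after their values were seen except Apobec1. Apobec1, a cytidine deaminase gene, had 264 and 274.5 TPM with LUP and 510.3 and 532 TPM with vehicle. Serinc5, whose protein lowers the infectivity of retroviral particles, had 3.3 and 2.89 TPM with LUP and 6.08 and 6.73 TPM with vehicle (adjusted p = 6.14e-08). Serinc3 fell by 0.14 on the log2 scale, a call lost without vehicle replicate 1. Khnyn fell by 0.28, a call lost without vehicle replicate 2, with the DESeq2 test and with limma on log2 TPM. The last gene, Shfl, had 10.2 and 7.85 TPM with LUP and 10.3 and 8.56 TPM with vehicle (adjusted p = 0.918).

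Of 14 listed genes of interferon signalling and its control, 11 were called higher, 1 lower and 2 were not called. The 11 include Usp18 (20.02-fold) and Socs1 (11.7-fold), which inhibit signalling from the interferon receptor and were named after their values were seen. Irf7, a factor that amplifies the response, had 670.5 and 596 TPM with LUP and 13.9 and 14.8 TPM with vehicle. Stat2 and Irf9, factors that act at the ISRE, rose 5.48-fold and 3.17-fold, and both were named after their values were seen. The receptor chain gene Ifnar2 rose 1.97-fold.
Irf8, a macrophage lineage factor, fell by 0.24 on the log2 scale. Irf3, which acts before interferon is made, had 61.7 and 53 TPM with LUP and 69.6 and 69.1 TPM with vehicle (adjusted p = 0.0633), and it was called lower under the same pair of settings as Ripk1. All 21 listed interferon genes were below the filter, and 18 had no count in any library. Ifng had 10 and 10 counts with LUP and none in either vehicle library.

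**Figure D5:**
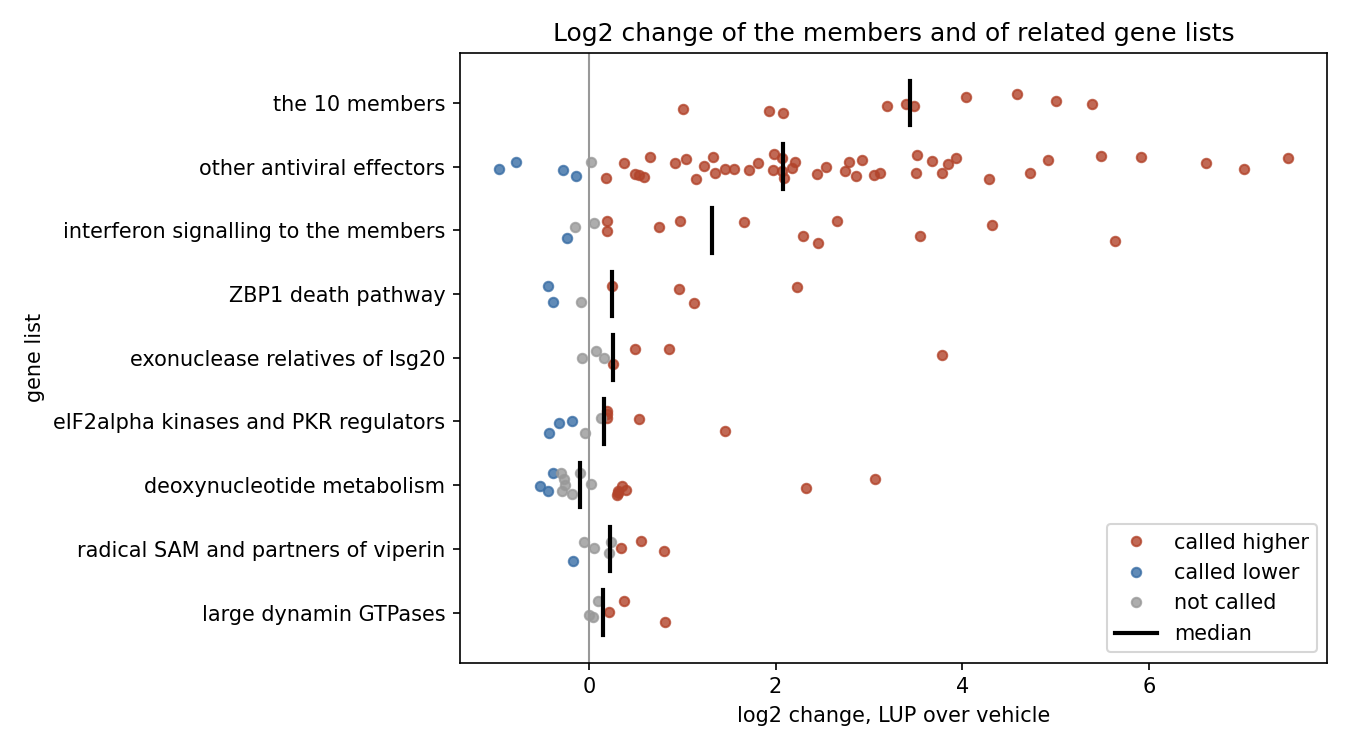
Log2 change (LUP over vehicle) of each tested gene in the 10 members and in 8 related lists, coloured by call (adjusted p under 0.05), with a black line at the list's median. The members and the other antiviral effectors lie furthest right, with medians of 3.44 and 2.08. The ZBP1 death pathway and exonuclease lists have medians of 0.24 and 0.26. Those of the eIF2 alpha kinase, radical SAM, dynamin and deoxynucleotide lists are 0.16, 0.22, 0.15 and -0.09. Members and lists were chosen with earlier results of these data known.

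The genes whose profile over the 4 libraries was closest to the mean profile of the members, by Euclidean distance of centred log2(TPM + 1), were Tmem178 (distance 0.0414), Aoah (0.087) and C1ra (0.0954). Aoah, an enzyme that inactivates lipopolysaccharide, had 175 and 168 TPM with LUP and 20.5 and 20.7 TPM with vehicle. C1ra, a protease of the classical complement pathway, had 26.7 and 24.7 TPM with LUP and 2.45 and 2.68 TPM with vehicle. Tmem178, a membrane protein gene, had 13.3 and 11.6 TPM with LUP and 0.72 and 0.67 TPM with vehicle. The distance of the members themselves from that mean ran from 0.163 (Ifitm3) to 2.48 (Samhd1).

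The authors' deposited table gives its own fold for each gene. Its log2 fold runs vehicle over LUP: among 877 genes over 5 TPM with more than a 2-fold TPM difference, 874 had the sign opposite to LUP over vehicle. In the authors' deposited table the log2 fold of the members ran from -1.01 for Samhd1 to -5.39 for Zbp1, which is higher with LUP for all 10.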

How the data were processed

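RNA of 4 libraries was analysed, 2 with LUP and 2 with vehicle. Per the labels' protocols TRIzol extraction and DNase I digestion preceded a TruSeq kit and paired-end sequencing; whether strand was kept is not stated, so overlapping and antisense genes cannot be separated. The expected counts per gene were deposited by the authors unscaled, and the tools listed in the submitters' processing notes are fastp, HISAT2, StringTie and RSEM, without versions. The authors also deposited TPM per library and per group, and a fold (ratio) with its log2, p-value and adjusted p-value; their test and the genome build are not given in the sources used here.

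After rounding of the expected counts, edgeR's quasi-likelihood test (edgeR 4.0.16, R 4.3.3) was fitted to treatment alone, with TMM scaling and the low-count filter at its default. Benjamini-Hochberg adjustment covered all 13355 tested genes, and a call needed an adjusted p under 0.05. Standard errors were the log2 change over the root of F, and 95% intervals used the test's degrees of freedom. Counts were called whole within 0.001. Implied length was counts per TPM over the median of counts per TPM per base, over genes with at least 100 counts and 1 TPM in every library. Alternatives used DESeq2 1.42.0 and limma 3.58.1. Replicate libraries were not copies of each other (chi-square per degree of freedom 3.65 between LUP and 2.75 between vehicle libraries). The members and lists were chosen with earlier results of these data known. All members were named, and of other lists up to 5 called genes and up to 3 others with the highest mean TPM, or all of a list of 8 or fewer; genes named outside this are marked, and 1 gene that the rule names is not reported here. Windows and neighbours came from RefSeq GRCm38.p6 tables.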

Additional observations from a re-analysis of the deposited data

How the results depend on the processing

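All 10 members were called higher under each of the 13 alternatives: other scalings, filters and tests, limma on TPM, a replicate block, a crossed block chosen after seeing the data, and each library left out. Their smallest log2 changes were 0.48 for Samhd1 and 1.67 for Eif2ak2, and their highest adjusted p was 0.0115, for Samhd1 with limma on log2(TPM + 1). The log2 change of Mx2 ran from 3.38 with limma on log2(TPM + 1) to 4.84 with limma on log2(TPM + 0.1). The other effectors called higher numbered 40 when genes under a mean of 5 TPM were left out, which takes some of them out of the test. In the other alternatives they numbered 42 to 45. Over all genes, 3621 were called higher in the main test, 1852 with limma on log2(TPM + 1), 1886 with limma on log2(TPM + 0.1) and 3162 to 3470 without 1 library; 3164 were called lower in the main test and 2069 with the DESeq2 test. Of all calls, 53.4% were higher in the main test, 41.4% after quantile normalization, 44% with limma on log2(TPM + 1) and 43.7% with limma on log2(TPM + 0.1). In these alternatives the median of all genes moved by -0.07, -0.09 and -0.10, so the direction of changes smaller than these depends on the scaling. The direction of some larger changes does too, as that of Lyz2 below. With a replicate block 3533 genes were called higher, all 10 members among them, and with the crossed block 3835; the libraries share only a number (correlation of deviations -0.066 over all tested genes and -0.16 over those of at least 5 TPM). Of 727 values of 57 other named genes, 686 kept their direction and call. These 57 do not include Lyz2 and Cd68, whose direction also turned. Lyz2, called lower at -0.387 in the main test, turned to 0.128 after quantile normalization. Cd68, not called at 0.068, fell as low as -0.054 with limma on log2 TPM. With the crossed block and without LUP replicate 1 it kept its sign and was called higher. Shfl, not called, turned to -0.064 after quantile normalization, -0.019 among genes of at least 5 TPM, -0.059 and -0.065 with limma on TPM, and -0.12 without LUP replicate 1, with a range of -0.19 (without vehicle replicate 2) to 0.25 (without vehicle replicate 1) over left-out libraries; the cause was not tested. The design has 2 libraries per group, and genes near the floor with vehicle, such as Mx2, have folds limited by depth.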
